A study of Mus musculus with 12 samples.

Results

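The canonical histone cluster genes were represented by 45 probe sets of the array, out of 34760 in the deposited table and 22961 that were annotated with at least 1 gene symbol. A probe set is the group of oligonucleotide probes that the array reads as one transcript. A probe set was taken when every symbol it named began with Hist1h, Hist2h, Hist3h or Hist4h, or with H1f, H2ac, H2bc, H3c or H4c. In the annotation used here all of them carried the current symbols. Together they named 47 genes, of which 9 encode H1, 4 encode H2A, 10 encode H2B, 12 encode H3 and 12 encode H4. Of the 45 probe sets, 30 named 1 gene and 15 named several, and each of these 15 was kept as a single row because the array cannot separate the genes it reads. There were 8 probe sets for H1, 4 for H2A, 9 for H2B, 12 for H3, 11 for H4, and 1 that named an H1 gene and an H2B gene together. Another 7 probe sets, which named histone cluster genes beside a further symbol, were left out.

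RNA came from mouse bone marrow cells that had been turned into dendritic cells by 7 days with GM-CSF (200 ng/ml) and then selected with CD11c beads, with a labelled purity above 95%. Each of the 4 groups had 3 arrays: IL-2 knockout (KO) cells given curdlan for 6 h, untreated KO cells, wild-type (WT) cells given curdlan for 6 h, and untreated WT cells. Dendritic cells sense curdlan, a beta-glucan like those of fungal walls, through Dectin-1, and the design asked what IL-2 signalling does in these cells. All 12 arrays carry the strain name B6.129P2-Il2tm1Hor/J, the WT arrays included, so genotype was read from the genotype label. The labels name neither the animals nor their age, and they do not say that replicates came from separate animals, so a p-value here covers only the spread among the arrays, which may be technical. Arrays of the same genotype and replicate number are called a culture here. The labels do not say that they came from the same culture.

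Histones are the proteins around which DNA is wound. H2A, H2B, H3 and H4 form the core of the nucleosome and H1 binds the linker DNA beside it. The genes of these clusters are mostly replication-dependent: they are transcribed in S phase, when new DNA has to be packaged, and their messages end in a stem-loop that binds Slbp instead of a poly(A) tail, so that they are lost when replication stops. A dendritic cell culture from bone marrow holds dividing precursors beside mature cells that have left the cell cycle. The stand-alone H1 gene H1f10 is not tied to S phase in this way. The testis and oocyte genes H1f6, H1f7, H1f8, H2ac1 and H2bc1 are set apart here as germline members.

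Il2, the disrupted gene, had log2 values of 5.87, 5.80 and 5.63 in curdlan-treated KO cells, 6.04, 5.88 and 5.77 in untreated KO cells, 7.80, 7.22 and 6.74 in curdlan-treated WT cells, and 5.57, 5.37 and 5.53 in untreated WT cells. Curdlan-treated KO cells differed from curdlan-treated WT cells by -1.48 on the log2 scale (limma, adjusted p = 0.0122), and the arrays of these groups did not overlap. In untreated cells the difference went the other way, at 0.41 (adjusted p = 0.547), with all KO arrays above all WT arrays, and the lower Il2 of the KO label was seen only with curdlan. Array medians over the whole table lay between 6.59 and 6.64, and correlations between arrays ranged from 0.981 to 0.997. All 10 dendritic cell markers measured stood above the lower quartile of annotated probe sets on all 12 arrays. Itgax had a mean log2 value of 12.96 over the arrays. Of 8 T cell genes measured, 2 stayed below the lower quartile on all 12 arrays, the defining gene Cd3d among them. The mean level of the T cell list lay between 5.44 and 5.78 per array, above the lower quartiles of 5.25 to 5.42. Whether T cells were absent was not tested. Replicate 2 of the WT cells was the highest of its group for 39 of 45 histone probe sets with curdlan, against 26.6% of annotated probe sets, and for 31 of 45 without curdlan, against 31.3% of them. Several values without it are given with the comparisons.

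Histone cluster messages were lower in untreated KO cells than in untreated WT cells, and lower with curdlan than without it in each genotype. Per array, the median deviation of the 45 probe sets from their own means over the 12 arrays was -0.25, -0.40 and -0.34 in curdlan-treated KO cells, -0.10, -0.08 and -0.09 in untreated KO cells, -0.09, 0.26 and -0.05 in curdlan-treated WT cells, and 0.38, 0.48 and 0.30 in untreated WT cells, on the log2 scale. Untreated WT cells were thus the highest group and curdlan-treated KO cells the lowest, and untreated KO cells lay beside the lower curdlan-treated WT arrays. In bulk RNA such a difference can mean fewer cells that make these messages or fewer messages per cell, which cannot be told apart here.

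**Figure D1:**
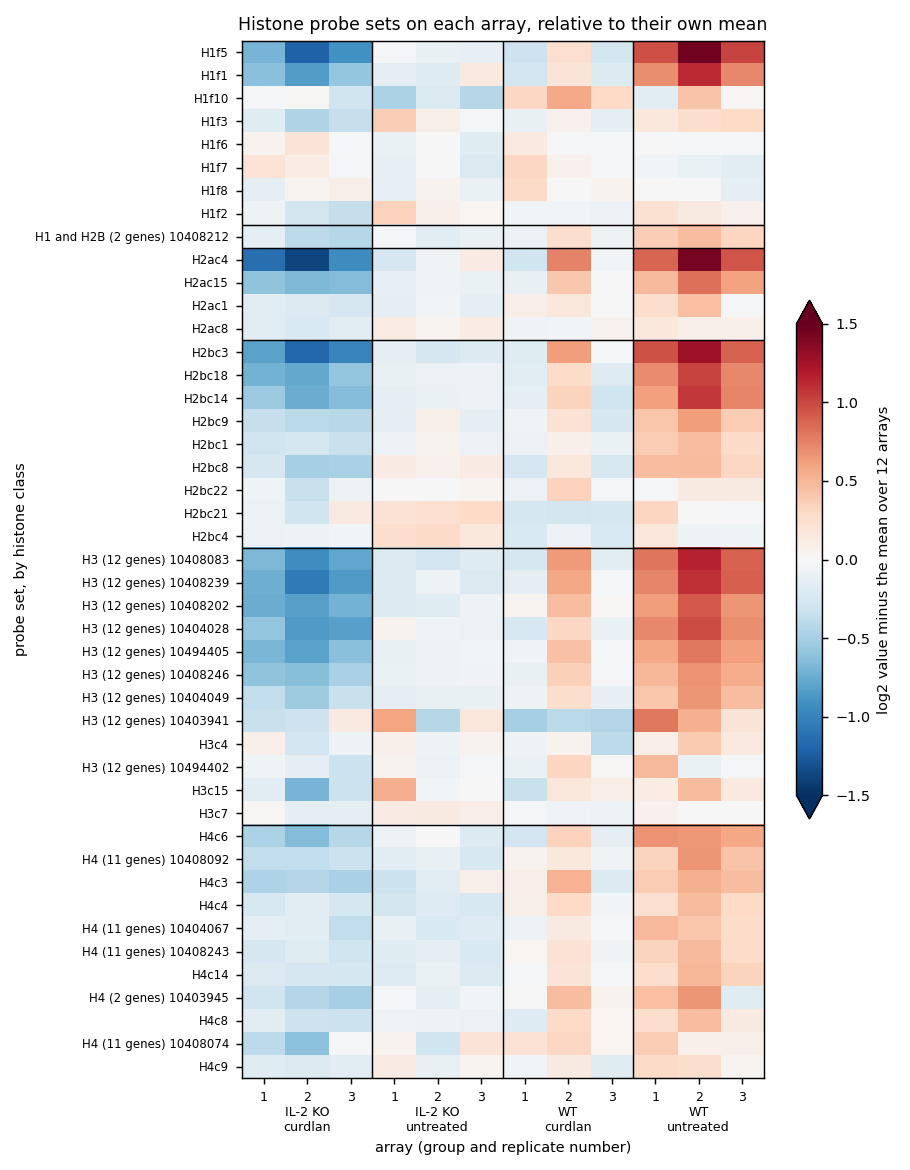
Log2 value of each of the 45 histone probe sets (rows, by class) on each of the 12 arrays (columns, by group), minus the mean of that probe set over the 12 arrays. Curdlan-treated KO arrays are blue for most probe sets and untreated WT arrays are red, with median deviations of -0.25, -0.40 and -0.34 in curdlan-treated KO cells and 0.38, 0.48 and 0.30 in untreated WT cells, while H1f6, H1f7, H1f8 and H1f10 do not follow that pattern.

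Many of the genes share promoter letters that the choice of probe sets did not use. The 250 bases before the RefSeq start (build GRCm38.p6) were available for 42 of the 47 genes and were searched on both strands for the CCAAT box (CCAAT), the TATA box (TATAAA) and the octamer of H2A and H2B promoters (ATTTGCAT), a known binding sequence of Oct-1. These motifs do not overlap each other in the sequences shown. CCAAT was found in 30 of the 42 histone promoters (71.4%), against 33.8% of all 32851 promoters of the same length. These were 7 of 9 H1, 4 of 4 H2A, 8 of 8 H2B and 8 of 10 H3 promoters, but 3 of 11 H4 promoters (27.3%). TATAAA was found in 21 of the 42, against 12.4% of all promoters, from 4 of 10 in H3 to 3 of 4 in H2A. The octamer was found in 9 of the 42 (21.4%), against 1.6% of all promoters; these were 3 of 4 H2A genes and 6 of 8 H2B genes, with 0 of 9 H1, 0 of 10 H3 and 0 of 11 H4 genes. Neighbouring H2A and H2B genes that point away from each other share part of this window, so a site can be counted for both. The octamers of H2ac1 and H2bc1 are the same site, as are those of H2ac8 and H2bc8. The CCAAT and TATAAA counts hold such shared sites too, so the genes are not independent. A match describes the letters and does not show that a factor binds there. Shown are the promoters of 4 genes whose values fell in both genotypes with curdlan and were lower in untreated KO cells, 1 linker histone gene and 3 core histone genes, and of H1f10, whose means were higher with curdlan. Capitals mark the 3 motifs on either strand, and each sequence reads 5′ to 3′ towards the gene.
H1f5 promoter, chr13:21780626-21780875 (minus strand): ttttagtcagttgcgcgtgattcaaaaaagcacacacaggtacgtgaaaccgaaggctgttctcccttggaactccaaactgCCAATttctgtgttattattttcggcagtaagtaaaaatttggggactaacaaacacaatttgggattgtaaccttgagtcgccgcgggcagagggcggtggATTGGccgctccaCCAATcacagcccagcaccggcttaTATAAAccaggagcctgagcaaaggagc
H2ac4 promoter, chr13:23750838-23751087 (plus strand): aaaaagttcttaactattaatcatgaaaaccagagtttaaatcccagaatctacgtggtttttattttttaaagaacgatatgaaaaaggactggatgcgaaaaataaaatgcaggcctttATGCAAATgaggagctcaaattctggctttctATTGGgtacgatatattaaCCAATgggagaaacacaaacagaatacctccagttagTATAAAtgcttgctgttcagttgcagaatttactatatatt
H2bc3 promoter, chr13:23746484-23746733 (plus strand): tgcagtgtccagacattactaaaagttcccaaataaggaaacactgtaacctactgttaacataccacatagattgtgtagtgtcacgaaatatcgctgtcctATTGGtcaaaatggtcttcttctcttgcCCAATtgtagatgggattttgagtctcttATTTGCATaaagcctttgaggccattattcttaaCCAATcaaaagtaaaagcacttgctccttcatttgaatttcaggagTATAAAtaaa
H2bc18 promoter, chr3:96269450-96269699 (plus strand): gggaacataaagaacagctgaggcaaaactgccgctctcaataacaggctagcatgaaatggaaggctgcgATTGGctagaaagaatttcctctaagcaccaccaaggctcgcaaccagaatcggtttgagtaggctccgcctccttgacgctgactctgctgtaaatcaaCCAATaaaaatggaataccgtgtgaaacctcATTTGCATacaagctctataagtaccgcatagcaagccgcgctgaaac
H1f10 promoter, chr6:87981483-87981732 (minus strand): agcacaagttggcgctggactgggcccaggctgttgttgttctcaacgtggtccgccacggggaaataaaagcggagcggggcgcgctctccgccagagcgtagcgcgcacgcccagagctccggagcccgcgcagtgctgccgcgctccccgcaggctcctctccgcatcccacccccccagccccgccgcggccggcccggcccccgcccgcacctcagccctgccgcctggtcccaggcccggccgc
In H1f5, CCAAT letters start 168, 66 and 53 bases before the gene and TATAAA starts 28 bases before it. In H2ac4 the octamer lies 129 bases before the start on the opposite strand, with CCAAT letters at 97 and 78 bases and TATAAA at 41 bases. H2bc3 and H2bc18 carry the octamer on the same strand as the gene, 90 bases and 48 bases before the start. The H1f10 promoter held none of the 3 motifs in this window. The promoters shown were picked by the values of their genes. CCAAT letters also occurred before genes called in no comparison without a block, for example H1f6, H1f8 and H2bc22. Whether the motifs go with the changes was not tested.

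Among the linker histones, H1f5 (chromosome 13, 21779832 to 21780625, minus strand), a replication-dependent H1, had log2 values of 8.24, 7.72 and 8.03 in curdlan-treated KO cells, 8.91, 8.83 and 8.82 in untreated KO cells, 8.63, 9.20 and 8.66 in curdlan-treated WT cells, and 9.91, 10.38 and 9.95 in untreated WT cells. All 3 untreated WT arrays were above every array of the other 3 groups. Untreated KO cells differed from untreated WT cells by -1.23 ± 0.17 (SE, adjusted p = 0.0109) on the log2 scale, which is 2.35-fold lower. With curdlan, H1f5 fell by 0.85 ± 0.17 (SE, adjusted p = 0.00674) in KO cells and fell by 1.25 ± 0.17 (SE, adjusted p = 0.000701) in WT cells. With curdlan, the difference between KO and WT cells was -0.83 ± 0.17 (SE, adjusted p = 0.0615).

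H1f1, a further replication-dependent H1 gene of the chromosome 13 cluster, had 7.91, 7.69 and 7.95 in curdlan-treated KO cells, 8.38, 8.33 and 8.68 in untreated KO cells, 8.24, 8.73 and 8.33 in curdlan-treated WT cells, and 9.22, 9.65 and 9.25 in untreated WT cells. Its group means were ordered as those of H1f5. The curdlan change was -0.61 ± 0.15 (SE, adjusted p = 0.0160) in KO cells and -0.94 ± 0.15 (SE, adjusted p = 0.00172) in WT cells, and untreated KO cells differed from untreated WT cells by -0.91 ± 0.15 (SE, adjusted p = 0.0172). Without replicate 2 of the untreated WT arrays, that genotype difference had an adjusted p of 0.0850 for H1f1 and 0.0474 for H1f5, and the fall of H1f1 in KO cells had 0.0718 without replicate 2 of the curdlan-treated KO arrays. H1f3 and H1f2 are also replication-dependent, and their untreated KO and WT arrays overlapped. H1f3 had 5.68, 5.41 and 5.51 in curdlan-treated KO cells, 6.24, 5.95 and 5.84 in untreated KO cells, 5.75, 5.92 and 5.73 in curdlan-treated WT cells, and 6.01, 6.13 and 6.16 in untreated WT cells. In KO cells given curdlan it fell by 0.48 ± 0.10 (SE, adjusted p = 0.00941), and its genotype difference without curdlan was -0.09 ± 0.10 (SE, adjusted p = 0.899). H1f2, the H1 probe set with the highest mean signal, had 10.84, 10.66 and 10.56 in curdlan-treated KO cells, 11.27, 11.01 and 10.96 in untreated KO cells, 10.88, 10.89 and 10.84 in curdlan-treated WT cells, and 11.15, 11.06 and 10.99 in untreated WT cells. The genotype difference was 0.01 ± 0.09 (SE, adjusted p = 0.991) without curdlan and -0.18 ± 0.09 (SE, adjusted p = 0.490) with it. The curdlan change was -0.39 ± 0.09 (SE, adjusted p = 0.0130) in KO cells and -0.20 ± 0.09 (SE, adjusted p = 0.172) in WT cells. The fall of H1f2 in KO cells had an adjusted p of 0.0527 without replicate 2 of the curdlan-treated KO arrays, and in WT cells it passed the threshold with the culture as a block (adjusted p = 0.0268), as did that of H1f3 (adjusted p = 0.0145).

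The other 4 H1 probe sets did not follow H1f5 and H1f1. H1f10 (chromosome 6, 87980421 to 87981482, minus strand), the replication-independent linker histone H1.10 (H1X), had 8.42, 8.46 and 8.14 in curdlan-treated KO cells, 7.98, 8.23 and 8.02 in untreated KO cells, 8.75, 9.02 and 8.74 in curdlan-treated WT cells, and 8.27, 8.87 and 8.46 in untreated WT cells. Its means were higher with curdlan in each genotype, by 0.27 ± 0.15 (SE, adjusted p = 0.198) in KO cells and 0.30 ± 0.15 (SE, adjusted p = 0.186) in WT cells, and both rises passed the threshold when the culture was a block (adjusted p = 0.0398 in KO and 0.0288 in WT cells). Against WT cells, H1f10 stood at -0.46 ± 0.15 (SE, adjusted p = 0.216) in untreated KO cells and at -0.50 ± 0.15 (SE, adjusted p = 0.181) in curdlan-treated KO cells, and no KO array reached the WT arrays of the same treatment. H1f6, H1f7 and H1f8 are the testis and oocyte linker histones. Their curdlan changes lay between 0.05 and 0.23 in WT cells and between 0.06 and 0.22 in KO cells, and none of the 3 passed the threshold in any of the 4 comparisons without a block. With the culture as a block, H1f7 rose with curdlan by 0.22 in KO cells (adjusted p = 0.0388) and by 0.23 in WT cells (adjusted p = 0.0388), and H1f6 rose by 0.17 in KO cells (adjusted p = 0.0451). The probe set that names the H1 gene H1f4 and the H2B gene H2bc6 together had 7.49, 7.24 and 7.21 in curdlan-treated KO cells, 7.61, 7.48 and 7.54 in untreated KO cells, 7.55, 7.91 and 7.56 in curdlan-treated WT cells, and 8.004, 8.10 and 7.96 in untreated WT cells. Its log2 difference was -0.48 ± 0.10 (SE, adjusted p = 0.0496) in untreated KO against untreated WT cells, and it fell by 0.35 ± 0.10 (SE, adjusted p = 0.0339) with curdlan in WT cells. The genotype value, without replicate 2 of the untreated WT arrays, had an adjusted p of 0.238, and without replicate 1 of the curdlan-treated WT arrays the curdlan value had 0.126.

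**Figure D2:**
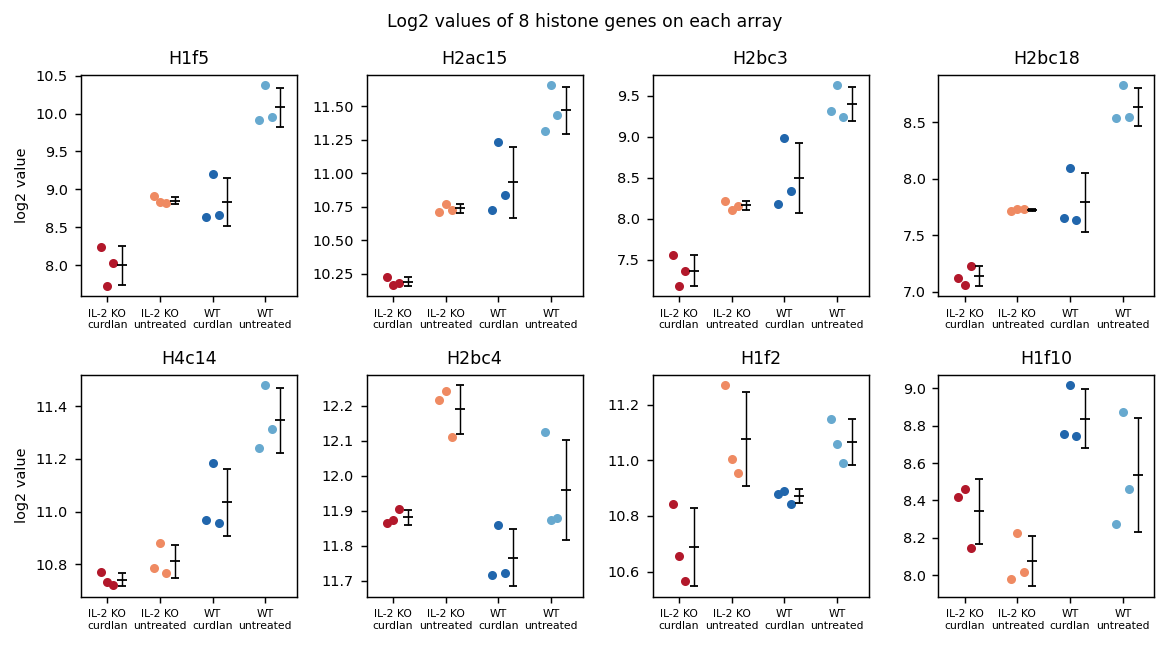
Log2 values of 8 single-gene histone probe sets on the 12 arrays (vertical axis, a scale of its own in each panel), by group (horizontal axis). Coloured points are arrays, and the black mark with bar is the mean ± SD of 3 arrays. H1f5, H2ac15, H2bc3 and H2bc18 are lowest in curdlan-treated KO cells and highest in untreated WT cells, H4c14 separates the genotypes, the mean of H2bc4 is higher in KO cells in both treatments, untreated H1f2 overlaps between the genotypes, and the means of H1f10 are higher with curdlan.

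Both replication-dependent H2A genes measured well above the lower quartile followed the pattern of H1f5. H2ac4 (chromosome 13, 23751088 to 23751592, plus strand) had 5.99, 5.74 and 6.17 in curdlan-treated KO cells, 6.87, 7.07 and 7.24 in untreated KO cells, 6.82, 7.86 and 7.08 in curdlan-treated WT cells, and 7.995, 8.55 and 8.06 in untreated WT cells. Every curdlan-treated KO array was lower than every other array. The difference between KO and WT cells was -1.14 ± 0.24 (SE, adjusted p = 0.0459) without curdlan, 2.21-fold lower, and -1.29 ± 0.24 (SE, adjusted p = 0.0417) with it, 2.44-fold lower, and the fall with curdlan was -1.09 ± 0.24 (SE, adjusted p = 0.00946) in KO and -0.95 ± 0.24 (SE, adjusted p = 0.0175) in WT cells. H2ac15, the brightest H2A probe set, had 10.23, 10.16 and 10.18 in curdlan-treated KO cells, 10.71, 10.77 and 10.73 in untreated KO cells, 10.72, 11.23 and 10.84 in curdlan-treated WT cells, and 11.32, 11.66 and 11.43 in untreated WT cells. Its KO arrays were the tighter ones. The difference between KO and WT cells was -0.73 ± 0.12 (SE, adjusted p = 0.0156) without curdlan and -0.74 ± 0.12 (SE, adjusted p = 0.0253) with it. With curdlan, H2ac15 fell by 0.55 ± 0.12 (SE, adjusted p = 0.00924) in KO cells and fell by 0.54 ± 0.12 (SE, adjusted p = 0.00912) in WT cells. Leaving out replicate 2 of the untreated WT arrays took the untreated genotype difference to an adjusted p of 0.225 for H2ac4 and 0.0850 for H2ac15, and the curdlan change of H2ac4 in WT cells to 0.0717. Leaving out replicate 2 of the curdlan-treated KO arrays took the genotype difference with curdlan to 0.147 and 0.0955, and without replicate 2 of the curdlan-treated WT arrays that of H2ac4 was -0.98 (adjusted p = 0.105).

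H2ac8, also an H2A gene of the chromosome 13 cluster, was dim, below the lower quartile on all 12 arrays, with 4.06, 3.99 and 4.05 in curdlan-treated KO cells, 4.32, 4.25 and 4.33 in untreated KO cells, 4.16, 4.17 and 4.27 in curdlan-treated WT cells, and 4.37, 4.30 and 4.29 in untreated WT cells. In KO cells given curdlan it fell by 0.27 ± 0.05 (SE, adjusted p = 0.00545), and in WT cells the change was -0.12 ± 0.05 (SE, adjusted p = 0.150). H2ac1, a testis H2A variant, passed the threshold in no comparison. Its KO arrays nonetheless lay below the WT arrays of the same treatment, with differences of -0.33 without curdlan (adjusted p = 0.186) and -0.30 with it (adjusted p = 0.245).

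Of 9 H2B probe sets, curdlan lowered 7 in each genotype, against 12.7% of annotated probe sets in KO and 11.3% in WT cells. H2bc3 (chromosome 13, 23746734 to 23747223, plus strand), a core histone gene next to H2ac4, had 7.56, 7.18 and 7.36 in curdlan-treated KO cells, 8.22, 8.11 and 8.16 in untreated KO cells, 8.18, 8.98 and 8.34 in curdlan-treated WT cells, and 9.31, 9.63 and 9.24 in untreated WT cells. The 4 groups were ordered as for H2ac4, and curdlan-treated KO cells were below all other arrays. The difference between KO and WT cells was -1.23 ± 0.18 (SE, adjusted p = 0.0131) without curdlan and -1.13 ± 0.18 (SE, adjusted p = 0.0253) with it. The curdlan change was -0.80 ± 0.18 (SE, adjusted p = 0.0117) in KO and -0.89 ± 0.18 (SE, adjusted p = 0.00623) in WT cells. H2bc18 (chromosome 3, 96269700 to 96270192, plus strand), of the smaller histone cluster on that chromosome, had 7.12, 7.06 and 7.23 in curdlan-treated KO cells, 7.72, 7.73 and 7.73 in untreated KO cells, 7.65, 8.10 and 7.63 in curdlan-treated WT cells, and 8.54, 8.84 and 8.55 in untreated WT cells. Its 3 untreated KO arrays were nearly equal and below all untreated WT arrays, with a difference of -0.91 ± 0.12 (SE, adjusted p = 0.00836). With curdlan the difference of H2bc18 was -0.66 ± 0.12 (SE, adjusted p = 0.0375), and the fall with curdlan was -0.59 ± 0.12 (SE, adjusted p = 0.00647) in KO and -0.85 ± 0.12 (SE, adjusted p = 0.000754) in WT cells. The untreated genotype difference of H2bc3 had an adjusted p of 0.0636 without replicate 2 of the untreated WT arrays, while that of H2bc18 stayed at 0.0433 or lower without any single array. With curdlan, both lost the genotype call without replicate 2 of the KO arrays (adjusted p = 0.0955 and 0.137), and the curdlan change of H2bc3 in KO cells then had 0.0554. The genotype difference of H2bc18 with curdlan, without replicate 2 of the curdlan-treated WT arrays, was -0.51 (adjusted p = 0.105).

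H2bc14 had 9.34, 9.14 and 9.24 in curdlan-treated KO cells, 9.75, 9.79 and 9.81 in untreated KO cells, 9.75, 10.23 and 9.59 in curdlan-treated WT cells, and 10.51, 10.95 and 10.62 in untreated WT cells. Its changes were close to those of H2bc18. Untreated KO against untreated WT cells gave -0.91 ± 0.15 (SE, adjusted p = 0.0161), and curdlan gave -0.54 ± 0.15 (SE, adjusted p = 0.0259) in KO and -0.84 ± 0.15 (SE, adjusted p = 0.00304) in WT cells. H2bc9 had 9.38, 9.32 and 9.31 in curdlan-treated KO cells, 9.59, 9.81 and 9.60 in untreated KO cells, 9.68, 9.95 and 9.48 in curdlan-treated WT cells, and 10.15, 10.36 and 10.11 in untreated WT cells. The steps were smaller, with -0.54 ± 0.11 (SE, adjusted p = 0.0441) for the untreated genotype difference and -0.50 ± 0.11 (SE, adjusted p = 0.00951) for curdlan in WT cells, and curdlan in KO cells gave -0.33 ± 0.11 (SE, adjusted p = 0.0560), or an adjusted p of 0.0115 with the culture as a block. H2bc1, a testis H2B variant and the one germline member past the threshold without a block, had 5.43, 5.46 and 5.38 in curdlan-treated KO cells, 5.63, 5.78 and 5.63 in untreated KO cells, 5.64, 5.80 and 5.63 in curdlan-treated WT cells, and 6.11, 6.19 and 6.01 in untreated WT cells. It fell by 0.26 ± 0.07 (SE, adjusted p = 0.0218) with curdlan in KO cells and fell by 0.41 ± 0.07 (SE, adjusted p = 0.00203) in WT cells, and untreated KO cells differed from untreated WT cells by -0.42 ± 0.07 (SE, adjusted p = 0.0156). The genotype values of these 3 genes, without replicate 2 of the untreated WT arrays, had adjusted p-values of 0.0850 for H2bc14, 0.217 for H2bc9 and 0.0878 for H2bc1. Without replicate 2 of the curdlan-treated KO arrays the curdlan change of H2bc14 in KO cells had 0.0971, and without replicate 1 of them that of H2bc1 had 0.0582.

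The remaining H2B genes differed from this in the genotype comparison. H2bc4 (chromosome 13, 23684199 to 23692480, plus strand), the brightest H2B probe set, had 11.86, 11.87 and 11.90 in curdlan-treated KO cells, 12.22, 12.24 and 12.11 in untreated KO cells, 11.71, 11.86 and 11.72 in curdlan-treated WT cells, and 12.12, 11.87 and 11.88 in untreated WT cells. Its untreated KO arrays were not lower than the untreated WT arrays: the difference was 0.23 ± 0.07 (SE, adjusted p = 0.228), and with curdlan it was 0.12 ± 0.07 (SE, adjusted p = 0.620), where every KO array was above every WT array. With curdlan in KO cells it fell by 0.31 ± 0.07 (SE, adjusted p = 0.0146), though without replicate 1 of the untreated KO arrays this had an adjusted p of 0.0555, and in WT cells the change was -0.19 ± 0.07 (SE, adjusted p = 0.0958). With curdlan, H2bc8 fell by 0.51 ± 0.11 (SE, adjusted p = 0.00864) in KO cells and fell by 0.53 ± 0.11 (SE, adjusted p = 0.00688) in WT cells, and its genotype difference was -0.31 without curdlan (adjusted p = 0.279). H2bc21 fell by 0.34 ± 0.11 (SE, adjusted p = 0.0446) in KO cells and fell by 0.37 ± 0.11 (SE, adjusted p = 0.0351) in WT cells. These values had adjusted p-values of 0.170 and 0.125 without replicate 2 of the curdlan-treated KO arrays and without replicate 1 of the untreated WT arrays. H2bc22 passed the threshold in no comparison.

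Of the 12 H3 probe sets, 9 name the same 12 H3 genes of chromosomes 13 and 3 and are told apart here by their array number. These messages are nearly identical in sequence, so the 9 rows may read the same transcripts and are not independent measurements. Probe set 10408202 had 10.95, 10.88 and 10.98 in curdlan-treated KO cells, 11.49, 11.52 and 11.61 in untreated KO cells, 11.73, 12.15 and 11.71 in curdlan-treated WT cells, and 12.32, 12.62 and 12.36 in untreated WT cells, and all KO arrays were below all WT arrays. The difference between KO and WT cells was -0.90 ± 0.11 (SE, adjusted p = 0.00770) without curdlan, 1.86-fold lower in KO cells, and -0.93 ± 0.11 (SE, adjusted p = 0.00617) with curdlan, 1.91-fold lower. With curdlan it fell by 0.60 ± 0.11 (SE, adjusted p = 0.00461) in KO and fell by 0.57 ± 0.11 (SE, adjusted p = 0.00570) in WT cells. It was the one histone probe set whose genotype difference with curdlan kept an adjusted p below 0.05 without any single array, at 0.0412 or lower, and without any single array the untreated difference stayed at 0.0433 or lower.

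The pattern repeated in 6 of the other 8 probe sets that name these 12 genes. Probe set 10494405, the brightest, had 11.82, 11.70 and 11.88 in curdlan-treated KO cells, 12.39, 12.43 and 12.47 in untreated KO cells, 12.45, 12.94 and 12.48 in curdlan-treated WT cells, and 13.08, 13.29 and 13.12 in untreated WT cells. Probe set 10408239 had 10.57, 10.25 and 10.45 in curdlan-treated KO cells, 11.10, 11.23 and 11.09 in untreated KO cells, 11.16, 11.89 and 11.28 in curdlan-treated WT cells, and 12.03, 12.41 and 12.20 in untreated WT cells. Probe set 10408246 had 11.56, 11.51 and 11.68 in curdlan-treated KO cells, 12.06, 12.08 and 12.11 in untreated KO cells, 12.05, 12.52 and 12.13 in curdlan-treated WT cells, and 12.66, 12.83 and 12.72 in untreated WT cells. In each of these 3 the groups were ordered alike, with every untreated KO array below every untreated WT array and every curdlan-treated KO array below every curdlan-treated WT array. Probe set 10404028 had 8.77, 8.51 and 8.55 in curdlan-treated KO cells, 9.41, 9.30 and 9.27 in untreated KO cells, 9.12, 9.68 and 9.26 in curdlan-treated WT cells, and 10.08, 10.34 and 10.06 in untreated WT cells. Probe set 10408083 had 9.14, 8.88 and 9.04 in curdlan-treated KO cells, 9.61, 9.54 and 9.62 in untreated KO cells, 9.57, 10.46 and 9.66 in curdlan-treated WT cells, and 10.62, 10.98 and 10.70 in untreated WT cells. Probe set 10404049 had 11.96, 11.81 and 12.004 in curdlan-treated KO cells, 12.20, 12.23 and 12.23 in untreated KO cells, 12.26, 12.60 and 12.21 in curdlan-treated WT cells, and 12.75, 13.001 and 12.79 in untreated WT cells. These last 3 had the same order. Across the 6, the untreated genotype difference lay between -1.18 (10408083, adjusted p = 0.0158) and -0.63 (10404049, adjusted p = 0.0151), and all 6 passed the threshold. With curdlan it passed in 4 of them, from -1.02 (10408239, adjusted p = 0.0265) to -0.65 (10408246, adjusted p = 0.0253), and stood at -0.87 in 10408083 (adjusted p = 0.0791) and at -0.43 in 10404049 (adjusted p = 0.0991). Without replicate 2 of the untreated WT arrays the untreated difference of these 6 had adjusted p-values from 0.0827 (10494405) to 0.0916 (10408083), and without replicate 2 of the curdlan-treated KO arrays the difference with curdlan had from 0.0594 (10494405) to 0.123 (10404028) in the 4. Leaving out replicate 2 of the curdlan-treated WT arrays took that of 10404028 to -0.58 (adjusted p = 0.105). All 6 fell with curdlan in WT cells, from -0.87 (10408083) to -0.50 (10404049), and 4 of them did in KO cells, from -0.72 (10404028) to -0.50 (10408246). With the culture as a block the other two passed in KO cells as well, 10408083 at -0.57 (adjusted p = 0.00582) and 10404049 at -0.29 (adjusted p = 0.0107). The fall of 10408239 in KO cells had an adjusted p of 0.0601 without replicate 2 of the curdlan-treated KO arrays.

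The other H3 probe sets did not separate the genotypes past the threshold. Probe set 10403941 names the same 12 genes but stood below the lower quartile on all arrays, with 4.12, 4.15 and 4.59 in curdlan-treated KO cells, 5.05, 4.02 and 4.62 in untreated KO cells, 3.96, 4.05 and 4.02 in curdlan-treated WT cells, and 5.24, 4.99 and 4.65 in untreated WT cells. Its untreated arrays spread widely. With curdlan in WT cells it fell by 0.95 ± 0.23 (SE, adjusted p = 0.0140), which had an adjusted p of 0.0585 without replicate 1 of the untreated WT arrays, and stood at -0.28 ± 0.23 (SE, adjusted p = 0.381) in KO cells. Probe set 10494402, which names these genes too, passed the threshold in no comparison, with changes between -0.26 and -0.04. Of the 3 probe sets that name a single H3 gene, H3c4 and H3c15 passed in none, while H3c7 stood below the lower quartile on all arrays. With curdlan in KO cells H3c7 fell by 0.20 ± 0.05 (SE, adjusted p = 0.0234), or with an adjusted p of 0.0918 without replicate 2 of the curdlan-treated KO arrays. With the culture as a block, H3c15 fell by 0.57 in KO cells (adjusted p = 0.00409) and H3c4 fell by 0.35 in WT cells (adjusted p = 0.0107).

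Of 11 H4 probe sets, 6 were lower in untreated KO than in untreated WT cells, while curdlan lowered 1 in KO and 5 in WT cells. Of all annotated probe sets, 1.04% were called lower between untreated genotypes, 12.7% with curdlan in KO cells and 11.3% with curdlan in WT cells, so the KO count with curdlan was no higher than the background. H4c14 (chromosome 3, 96262934 to 96263317, minus strand) had 10.77, 10.73 and 10.72 in curdlan-treated KO cells, 10.79, 10.88 and 10.77 in untreated KO cells, 10.97, 11.18 and 10.96 in curdlan-treated WT cells, and 11.24, 11.48 and 11.31 in untreated WT cells. All KO arrays, with or without curdlan, were below all WT arrays, and curdlan-treated and untreated KO arrays lay close together. The untreated genotype difference was -0.53 ± 0.08 (SE, adjusted p = 0.0109), and the curdlan change was -0.07 ± 0.08 (SE, adjusted p = 0.512) in KO cells and -0.31 ± 0.08 (SE, adjusted p = 0.0162) in WT cells. Without replicate 2 of the untreated WT arrays these had adjusted p-values of 0.0498 for genotype and 0.0651 for curdlan in WT cells. H4c4, the brightest H4 probe set, had 12.60, 12.67 and 12.58 in curdlan-treated KO cells, 12.56, 12.64 and 12.59 in untreated KO cells, 12.91, 13.13 and 12.79 in curdlan-treated WT cells, and 13.07, 13.31 and 13.13 in untreated WT cells. Its curdlan change was 0.02 ± 0.09 (SE, adjusted p = 0.886) in KO cells and -0.22 ± 0.09 (SE, adjusted p = 0.0959) in WT cells, the WT one with an adjusted p of 0.0191 when the culture was a block. For this gene untreated KO cells differed from untreated WT cells by -0.57 ± 0.09 (SE, adjusted p = 0.0138). That difference had an adjusted p of 0.0621 without replicate 2 of the untreated WT arrays. H4c6 had 8.60, 8.42 and 8.64 in curdlan-treated KO cells, 9.001, 9.08 and 8.87 in untreated KO cells, 8.79, 9.41 and 8.92 in curdlan-treated WT cells, and 9.75, 9.73 and 9.65 in untreated WT cells. It was the one H4 probe set called with curdlan in KO cells without a block, and there it fell by 0.43 ± 0.13 (SE, adjusted p = 0.0413), and in WT cells it fell by 0.67 ± 0.13 (SE, adjusted p = 0.00581). Its untreated genotype difference was -0.73 ± 0.13 (SE, adjusted p = 0.0278). The KO fall had an adjusted p of 0.148 without replicate 2 of the curdlan-treated KO arrays, and the genotype difference 0.127 without replicate 2 of the untreated WT arrays.

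Of the probe sets that name the same 11 H4 genes, 10408092 had 11.25, 11.25 and 11.30 in curdlan-treated KO cells, 11.45, 11.50 and 11.37 in untreated KO cells, 11.66, 11.78 and 11.56 in curdlan-treated WT cells, and 11.95, 12.28 and 12.04 in untreated WT cells. Probe set 10408243 had 11.97, 12.04 and 11.92 in curdlan-treated KO cells, 12.04, 12.07 and 11.99 in untreated KO cells, 12.25, 12.44 and 12.17 in curdlan-treated WT cells, and 12.55, 12.70 and 12.50 in untreated WT cells. Probe set 10404067 had 9.84, 9.82 and 9.62 in curdlan-treated KO cells, 9.88, 9.76 and 9.79 in untreated KO cells, 9.90, 10.12 and 9.96 in curdlan-treated WT cells, and 10.47, 10.41 and 10.27 in untreated WT cells. Untreated KO arrays were below untreated WT arrays in all 3, with differences of -0.65 ± 0.08 (SE, adjusted p = 0.00836) for 10408092, -0.55 ± 0.08 (SE, adjusted p = 0.0109) for 10408243 and -0.57 ± 0.08 (SE, adjusted p = 0.0109) for 10404067. The untreated difference of 10404067 had an adjusted p of 0.0585 without replicate 2 of the untreated WT arrays, while the other two stayed at 0.0498 or lower without any single array. All 3 fell with curdlan in WT cells, with changes of -0.42, -0.30 and -0.39 in the same order. There, 10408243 had an adjusted p of 0.0829 without replicate 2 of the untreated WT arrays. In KO cells the same probe sets stood at -0.18 ± 0.08 (SE, adjusted p = 0.144), -0.06 ± 0.08 (SE, adjusted p = 0.607) and -0.05 ± 0.08 (SE, adjusted p = 0.653). The remaining 5 H4 probe sets, 10408074 for the 11 genes, 10403945 for 2 genes, and H4c3, H4c8 and H4c9, passed the threshold in no comparison without a block. With the culture as a block, curdlan lowered 10408074 in KO cells (-0.33, adjusted p = 0.0209), H4c9 in KO cells (-0.20, adjusted p = 0.0443) and in WT cells (-0.23, adjusted p = 0.0296), and H4c8 in WT cells (-0.25, adjusted p = 0.0474).

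Counted over all 45 probe sets, the untreated genotype comparison called 23 lower and 0 higher in KO cells at an adjusted p below 0.05 (limma, Benjamini-Hochberg over 22961 annotated probe sets). Of all annotated probe sets, 1.04% were called lower and 0.17% higher. The log2 differences of the 23 lay between -1.23 and -0.42, and the median of all 45 was -0.48, against 0.01 over all annotated probe sets. In 29 of 45 every untreated KO array was below every untreated WT array, which 7.71% of annotated probe sets showed. With curdlan, 9 were called lower and 0 higher, against backgrounds of 0.488% and 0.0958%, and the median was -0.36, against 0.02 over all annotated probe sets. In 30 of 45 the curdlan-treated KO arrays were all below the curdlan-treated WT arrays, against a background of 7%. All 9 were among the 23, 39.1% of the longer list and 100% of the shorter. By class, the untreated comparison called 2 of 8 H1, 2 of 4 H2A, 5 of 9 H2B, 7 of 12 H3 and 6 of 11 H4 probe sets, and the comparison with curdlan 0 of 8 H1, 2 of 4 H2A, 2 of 9 H2B, 5 of 12 H3 and 0 of 11 H4. Among the 30 probe sets that name 1 gene the counts were 12 and 4.

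These genotype counts rested on few arrays. The untreated count was 6 without replicate 2 of the untreated WT arrays, 9 without replicate 1 and 10 without replicate 2 of the untreated KO arrays, and at most 24 without any other array. The 6 that kept their call without each array in turn were H1f5, H2bc18, H3 probe set 10408202, H4 probe sets 10408092 and 10408243, and H4c14. When both arrays of a culture number were left out, which removes 2 arrays from the fit, the count was 0 without KO number 1 (31 at an unadjusted limma p below 0.05), 0 without KO number 2 (29 at that p), 9 without KO number 3 and 10 without WT number 3. Calls over all 22961 annotated probe sets shrank in these fits too, to 40 without KO number 1, 7 without KO number 2 and 51 without replicate 2 of the untreated WT arrays, against 278 with all arrays. The count with curdlan was 3, 1 and 2 without replicates 1, 2 and 3 of the curdlan-treated KO arrays and 2 without replicate 3 of the curdlan-treated WT arrays. Fitted on the 6 arrays of that comparison alone, limma called 0 of 45, with 31 at an unadjusted p below 0.05. Fitted over all 34760 probe sets, 2 histone probe sets were called, and 26 were with array weights. Over all features tested, that comparison called 134 with all 12 arrays fitted, 12 on its own arrays, 28 over all probe sets and 1299 with array weights. The median difference moved less, between -0.55 and -0.44 without curdlan and between -0.41 and -0.24 with it, over every single array left out, and no called probe set changed sign.

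**Figure D3:**
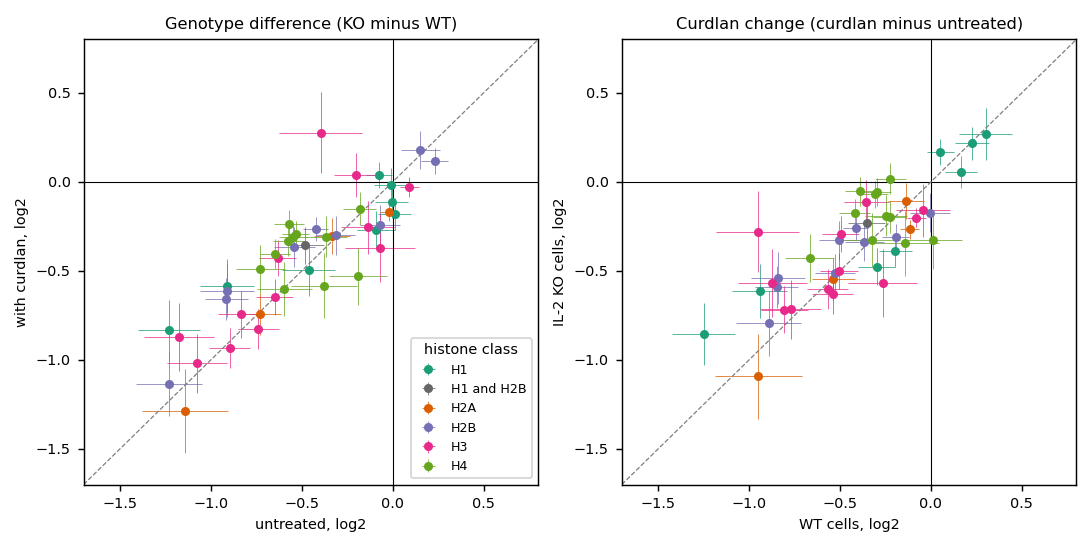
Log2 differences of the 45 histone probe sets, coloured by class, with bars of ± 1 SE from the fit. On the left, KO minus WT with curdlan (vertical axis) against KO minus WT untreated (horizontal axis), and on the right, curdlan minus untreated in KO cells (vertical axis) against WT cells (horizontal axis). The dashed line marks equal values, and 40 of 45 probe sets are below 0 with curdlan on the left and in each genotype on the right.

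Curdlan lowered 21 of 45 probe sets in KO cells and 25 of 45 in WT cells at the same threshold, and 0 rose in either. The background is wider here, since 12.7% of annotated probe sets were called lower in KO cells and 11.3% in WT cells, with 8.75% and 6.99% called higher. The median change of the 45 was -0.33 in KO and -0.35 in WT cells, against 0.03 and 0.02 over all annotated probe sets. All treated arrays were below all untreated arrays in 32 of 45 in KO cells, against 20.9% of annotated probe sets, and in 31 of 45 in WT cells, against 20.5%. The genotypes shared 16 of these calls, 76.2% of the KO list and 64.0% of the WT list, and 15 probe sets were called in neither. Across the 45, the curdlan changes of the genotypes, which share no arrays, correlated at r = 0.81 and rho = 0.76. This is a description, since several probe sets read the same genes. By class, KO cells against WT cells had 4 and 2 of 8 H1, 3 and 2 of 4 H2A, 7 and 7 of 9 H2B, 6 and 8 of 12 H3, and 1 and 5 of 11 H4 probe sets called lower. With the culture as a block, 28 probe sets fell and 3 rose in KO cells and 31 fell and 2 rose in WT cells, and the rises were those of H1f6, H1f7 and H1f10 given with the linker histones. In that fit 17.4% of annotated probe sets fell and 13.3% rose in KO cells, and 15.2% fell and 9.32% rose in WT cells. Without replicate 2 of the curdlan-treated KO arrays the KO count was 11, without KO culture numbers 1 and 2 it was 8 and 4, and without WT culture numbers 1 and 3 the WT count was 13 and 15. The median changes stayed between -0.34 and -0.28 in KO and between -0.45 and -0.31 in WT cells over every single array left out.

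Whether the curdlan change itself differed between KO and WT cells was tested as the interaction. limma called 0 of 45 probe sets and 0 of all annotated ones, a background of 0%, the lowest adjusted p among the 45 being 0.9996, and 3 of 45 had an unadjusted p below 0.05, against 668 of the 22961 annotated probe sets. With the culture as a block these were 13 of 45 and 1263 of 22961, and when replicate 2 of the curdlan-treated WT arrays was left out they were 14 of 45 and 550 of 22961, with 0 called in either. The median interaction was 0.03. The 3 were H4 probe sets: 10404067 at 0.34 ± 0.12 (SE), 10408243 at 0.24 ± 0.11 and H4c14 at 0.24 ± 0.11, with unadjusted limma p-values of 0.0142, 0.0489 and 0.0480. All 3 are positive, meaning a smaller fall in KO cells, and the values of the class are those given above for single H4 probe sets. The interaction was between -0.34 and 0.67 over the 45, and no difference in the curdlan change passed the threshold with 3 arrays a group.

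The genes that make and process histone messages had smaller medians. Of 20 such genes measured, curdlan lowered 10 in KO cells, with 0 raised, and 10 in WT cells, with 1 raised, and in the genotype comparisons 0 passed the threshold. Their median changes were -0.22 in KO and -0.28 in WT cells. The backgrounds over annotated probe sets were 12.7% lower and 8.75% higher in KO cells, and 11.3% lower and 6.99% higher in WT cells. Slbp, which binds the histone stem-loop, stood at -0.17 in KO cells (adjusted p = 0.246) and -0.28 in WT cells (adjusted p = 0.0968) on the brighter of its 2 probe sets. Npat, the coactivator of histone gene transcription, fell by 0.42 in KO cells (adjusted p = 0.0383) and fell by 0.40 in WT cells (adjusted p = 0.0480), and Casp8ap2 (FLASH), needed for processing, stood at -0.26 and -0.27 without passing (adjusted p = 0.159 and 0.176). Ccne2, Ccne1, Cdk2 and E2f1, which drive entry into S phase, fell in both genotypes. Their curdlan changes in KO and in WT cells were -0.90 and -0.72 for Ccne2, -0.38 and -0.54 for Ccne1, -0.40 and -0.42 for Cdk2, and -0.41 and -0.46 for E2f1, with adjusted p-values from 0.00263 (Ccne1, WT) to 0.0492 (Ccne2, WT).

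Of 21 histone chaperones and carriers measured, curdlan lowered 7 and raised 2 in KO cells and lowered 9 and raised 2 in WT cells. The backgrounds called lower were 12.7% of annotated probe sets in KO and 11.3% in WT cells. The shares raised were near the backgrounds of 8.75% in KO and 6.99% in WT cells. Between untreated genotypes, 1.04% of annotated probe sets were called lower in KO cells. Asf1b, the H3-H4 chaperone of dividing cells, fell by 0.88 in KO cells (adjusted p = 0.00558) and fell by 1.00 in WT cells (adjusted p = 0.00263), and it was the one member of this list lower in untreated KO than in untreated WT cells (log2 difference -0.96, adjusted p = 0.0240). Dnajc9, a co-chaperone of H3 and H4, and Mms22l, which acts at replication forks, fell too, with changes of -0.66 in KO and -0.63 in WT cells for Dnajc9, and of -0.43 and -0.51 for Mms22l. Daxx, the chaperone of the replication-independent H3.3, rose by 1.13 in KO cells (adjusted p = 0.000155) and by 1.31 in WT cells (adjusted p = 4.29e-05). Among 9 replication-independent histone genes measured, H1f10 included, curdlan lowered 2 in KO and 4 in WT cells, against 12.7% and 11.3% of annotated probe sets. H2ax, the variant marked at DNA breaks, changed by -0.48 in KO and -0.57 in WT cells, and H2aj by -0.34 and -0.31. H2az2 and the centromeric H3 Cenpa passed in WT cells, at -0.49 and -0.47, and stood at -0.20 and -0.19 in KO cells.

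Genes of DNA replication and of mitosis moved in the same direction as the histone genes. As background, curdlan lowered 12.7% of annotated probe sets in KO and 11.3% in WT cells. The genotype comparisons called 1.04% lower without curdlan and 0.488% with it. Of 29 replication and S phase genes, curdlan lowered 18 in KO and 21 in WT cells, with medians of -0.49 and -0.55, and 4 were lower in untreated KO than in untreated WT cells. These were Tyms at -0.78, Tk1 at -0.49, Prim1 at -0.83 and Uhrf1 at -0.77. The medians over the 29 were -0.50 without curdlan and -0.42 with it. Of 21 mitotic genes, curdlan lowered 14 in KO and all 21 in WT cells, and 16 were lower in untreated KO than in untreated WT cells, with a median of -1.17, against 3 with curdlan (Ccna2, Plk1 and Top2a) and a median of -0.88. For the histones the same medians were -0.48 and -0.36. Per array, the median deviation of the mitotic genes was -0.95, -1.03 and -0.85 in curdlan-treated KO cells, -0.13, -0.20 and 0.11 in untreated KO cells, -0.39, 0.48 and -0.15 in curdlan-treated WT cells, and 0.82, 1.54 and 0.92 in untreated WT cells, so replicate 2 of WT stood above the other WT replicates in both treatments, as it did for the histones. The part of cycling cells in the histone result was not tested.

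**Figure D4:**
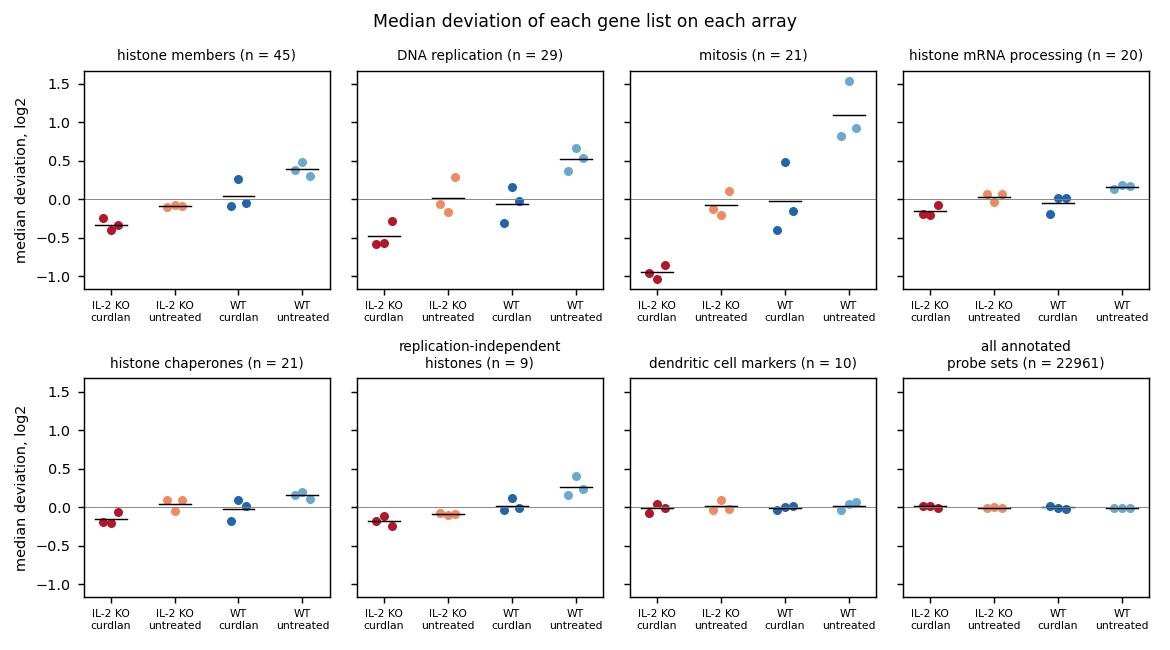
Median deviation of 8 gene lists on each array (vertical axis, log2, each probe set minus its own mean over 12 arrays), by group (horizontal axis). Points are arrays and black bars are means of 3 arrays. Histone, replication and mitotic genes are lowest in curdlan-treated KO cells and highest in untreated WT cells, while dendritic cell markers stay between -0.08 and 0.10.

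Markers of other cells that such cultures can hold were set beside the histones. Stem and precursor cell genes had a median difference of -0.46 in untreated KO against untreated WT cells and -0.38 with curdlan, with 0 of 8 past the threshold. Curdlan lowered 1 of the 8 in KO cells (median -0.11), which is near the background of 12.7% of annotated probe sets. In WT cells it lowered 3 of the 8 (median -0.25), against 11.3%. The median deviation of these 8 genes lay between -0.45 and 0.02 in curdlan-treated KO cells, -0.10 and -0.04 in untreated KO cells, -0.08 and 0.14 in curdlan-treated WT cells and 0.21 and 0.49 in untreated WT cells. Their part in the histone result was not tested. Dendritic cell markers had a median genotype difference of -0.03 without curdlan and -0.02 with it, and 1 of 10, Cd209a, was lower in KO cells in both. Of annotated probe sets, 1.04% were called lower in KO cells without curdlan and 0.488% with it. In the genotype comparisons, 0 of 8 macrophage and monocyte, 11 neutrophil, 6 erythroid, 8 mast cell and basophil, 8 T cell, 6 B cell and 6 NK cell genes passed the threshold with limma. With curdlan, 1 macrophage and monocyte gene fell and 1 rose in each genotype (list medians -0.18 in KO and -0.29 in WT cells), 1 neutrophil gene fell and 1 rose in KO cells, 1 erythroid gene fell in each genotype, 1 mast cell and basophil gene rose in KO cells, and 0 of the T cell, B cell and NK cell genes passed. The backgrounds were 12.7% lower and 8.75% higher in KO cells, and 11.3% lower and 6.99% higher in WT cells. Counts of 1 in such short lists are near these shares.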

How the data were processed

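RNA from 12 samples was measured on 1-colour Affymetrix mouse gene arrays, 3 for each of 4 groups taken from the genotype and treatment labels. The authors deposited 1 log2 value per probe set and array, made with RMA (background correction, quantile normalization and probe summary), per the submitters' processing notes. Neither its version nor which arrays shared one normalization is stated in the labels or notes. The table had 0 columns of other samples. Of its 34760 probe sets, 21640 had 1 gene symbol in the platform annotation, 1321 had several and 11799 were not listed; the 22961 with a symbol were tested with no filter on signal. An array has no read depth, and 3 arrays a group limit the precision.

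Groups were fitted together with limma 3.58.1 in R 4.3.3, with 8 residual degrees of freedom and eBayes. Benjamini-Hochberg adjustment at 0.05 was over all 22961. The fit was also run on simulated arrays drawn independently, with changes planted in curdlan-treated WT cells. That run covered the curdlan comparison in WT cells only and no arrays that deviate together. All tests are two-sided. In a fit with the culture as a block, each genotype and replicate number had a term of its own. This block served the curdlan changes and the interaction. For the genotype comparisons the block was the replicate number, with terms shared by both genotypes. Curdlan-treated and untreated arrays of the same number deviated together from their group means, so numbers were taken to pair these 2 treatments. That pairing was read from these same values, since the labels give replicate numbers only. The correlations were 0.438 to 0.564 in KO and 0.301 to 0.404 in WT cells, against at most 0.0624 for different numbers. Between genotypes numbers were not taken as pairs, except in the fit with the replicate number as a block. With curdlan, same-numbered arrays of the genotypes correlated between -0.113 and 0.317, overlapping different numbers (-0.298 to 0.201). Without curdlan the same numbers gave 0.0868 to 0.245 and different numbers -0.268 to 0.0087, with no overlap, so untreated arrays of the same number did deviate together, if weakly. No scan date or other batch label was used.

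The members and gene lists were chosen with earlier results of these data known. Genes were named by a fixed rule: in each histone class, up to 3 probe sets with the largest curdlan change past the threshold and the 1 with the highest mean, every probe set past the threshold in a genotype comparison or, for the interaction, where none passed, those with the lowest p, and up to 4 genes of each related list with the largest curdlan change in WT cells, with Slbp, Npat and Casp8ap2 always given. Promoters, gene coordinates and spans are from RefSeq (GRCm38.p6). Alternatives changed the arrays fitted, block, features, filter, scaling, variance prior, weights and arrays left out.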

Additional observations from a re-analysis of the deposited data

How the results depend on the processing

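Between curdlan-treated and untreated cells the number of histone probe sets called with limma lay between 4 and 23 in KO cells and between 13 and 29 in WT cells when single arrays or both arrays of a culture were left out, and was 13 in WT cells when 1 probe set per gene was kept or when, in an alternative chosen after seeing the data, only probe sets naming 1 gene were counted; both have fewer probe sets by construction. With the replicate block, which pairs the 2 treatments, 31 were called in KO and 33 in WT cells, and 0 of the earlier calls were lost. Between untreated genotypes the count lay between 0 and 24 and the median between -0.55 and -0.44 over arrays or cultures left out, the count was 12 and the median -0.35 with 1 probe set per gene or with probe sets naming 1 gene, and the median was -0.55 for the replication-dependent members alone, also chosen after seeing the data. Between curdlan-treated genotypes the count lay between 0 and 10 over arrays or cultures left out, was 4 with 1 probe set per gene or with probe sets naming 1 gene, 2 over all probe sets of the table, 26 with array weights, 0 with only the arrays compared (31 at an unadjusted p below 0.05), and 17 with the replicate number as a block. The replicate number as a block called 24 between untreated genotypes, and the culture as a block called 0 for the interaction. In the 2 genotype comparisons this block pairs same-numbered arrays of KO and WT cells, which the other fits do not. The causes of the changes under array weights, the block and left-out arrays were not tested. The interaction median lay between -0.019 and 0.16 over arrays or cultures left out, at its highest without replicate 2 of the curdlan-treated WT arrays. In curdlan-treated against untreated KO cells, values that missed the threshold changed sign in 3 probe sets: H3 probe set 10403941 lay between -0.55 and 0.047 (0.047 without KO culture 1), H4c4 between -0.0088 and 0.041 (-0.0088 without replicate 2 of the curdlan-treated KO arrays), and H4 probe set 10404067 between -0.11 and 0.017 (0.0080 without KO culture 3, 0.017 without replicate 3 of the curdlan-treated KO arrays). Adding the 7 probe sets with a further symbol, the remaining alternative chosen after seeing the data, and the rescalings, the dim filter and the variance prior left the counts within 1.5 times. Of the values of single probe sets under all alternatives, 2084 kept their direction and side of the threshold, 352 lost and 35 gained a call, and 4 changed sign. Dim probe sets, those below the lower quartile, carry little signal over background.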

Other observations

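Of the 27 single-gene histone probe sets on chromosomes 13 and 3, 24 belong to genes whose RefSeq span is between 375 and 903 bases. The other 3, all H2B genes, span more than 1000 bases: H2bc21 2667, H2bc4 8282 and H2bc22 14079. None of these 3 was called in a genotype comparison. Of the 24 shorter genes, 12 were called lower without curdlan and 4 with it, against 1.04% and 0.488% of annotated probe sets. Many of the shorter genes were thus not called either. Curdlan lowered 2 of the 3 longer and 14 of the 24 shorter genes in KO cells, against 12.7% of annotated probe sets. In WT cells it lowered 1 of the 3 and 12 of the 24, against 11.3%. The log2 difference of KO from WT cells was 0.15 without and 0.18 with curdlan for H2bc21, 0.23 and 0.12 for H2bc4, and -0.07 and -0.24 for H2bc22. This grouping was chosen after the values were seen and was not tested.

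Among the 7 probe sets left out for a further symbol, H2B probe set 10403978, chosen after its values were seen, had log2 values of 7.31, 6.51 and 7.83 in curdlan-treated KO cells, 8.65, 8.46 and 8.90 in untreated KO cells, 8.04, 9.48 and 8.77 in curdlan-treated WT cells, and 10.32, 10.35 and 10.05 in untreated WT cells. Its curdlan change was -1.45 in KO and -1.48 in WT cells, the largest falls among the 7, and both passed the threshold. The genotype differences of 10403978, -1.57 without curdlan and -1.54 with it, did not pass. In KO cells 1 of the 7 was higher with curdlan, at 0.30, without passing.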
